A study of Mus musculus with 15 samples.

Results

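The genes described here code for 10 glycoproteins and proteoglycans of the extracellular matrix: periostin (Postn), osteonectin (Sparc), thrombospondin-1 (Thbs1), fibronectin (Fn1), fibrillin-1 (Fbn1), microfibril-associated protein 5 (Mfap5), latent TGF-beta binding protein 2 (Ltbp2), lumican (Lum), decorin (Dcn) and biglycan (Bgn). They were taken by name, and 10 of 10 were found among the 12391 genes that the files name. The hearts came from male C57BL/6 mice in 3 groups of 5: AngII+QDG, AngII and Control. AngII mice received AngII (angiotensin II), the pressor peptide of the renin-angiotensin system, which is widely used to induce cardiac fibrosis. AngII+QDG mice received AngII together with QDG, a treatment that the labels give only by this abbreviation. Control mice carry no treatment in the labels, and the sources used here give no age, dose or duration. The study set out to find genes and pathways that differ between these hearts. Whole heart tissue was sequenced after rRNA depletion, so a gene's level mixes the number of cells that make it with the RNA per cell, and fewer cells of a type cannot be told apart from less RNA per cell.

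The cardiac matrix is laid down mainly by fibroblasts. Fibronectin and fibrillin form fibres on which other proteins assemble, and the small leucine-rich proteoglycans decorin, lumican and biglycan bind collagen fibrils. Matricellular proteins such as periostin, osteonectin and thrombospondin-1 build no scaffold of their own but act on cells, growth factors and collagen assembly; periostin is low in the resting adult heart and is a widely used marker of activated cardiac fibroblasts.

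Values are FPKM, fragments per kilobase of transcript per 1000000 fragments, summed over the named transcripts of a gene, so levels can be compared between genes. Depth read from the steps of the values was 51600000 to 78300000 fragments per library, if 1 step is 1 fragment, and a value of these genes rested on 17 to 57953 fragments. Heart identity held in every library, with 11 of 12 cardiomyocyte markers listed and a summed level of 25877 to 43539 FPKM. Control 3 and Control 5 stood apart from the other libraries. The balance of short against long transcripts, a log2 measure that is high where long transcripts are thinly covered, was 1.46 and 1.42 in these libraries and 1.02 to 1.21 in the other Control libraries. It averaged 0.83 ± 0.10 in AngII+QDG, 0.87 ± 0.07 in AngII and 1.24 ± 0.19 in Control (SD, n = 5 each), and both treated groups differed from Control (exact two-sided permutation test, p = 0.00794, the smallest that 5 against 5 can give, adjusted p = 0.0317 over 12 tests). Transcripts listed at 0 made up 5.53% in AngII+QDG, 5.94% in AngII and 12.1% in Control libraries, with 20.6% in Control 5. Results that rest on Control 3 and Control 5 are therefore given with and without them. The balance did not overlap between Control, at 1.02 to 1.46, and AngII, at 0.79 to 0.99, or AngII+QDG, at 0.67 to 0.91. It was computed from the same expression values. In fits with the balance as a covariate, balance and treatment cannot be told apart against Control, so calls lost there cannot be assigned to either.

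Postn, Fbn1 and Mfap5 were higher in AngII than in Control hearts. Tests used limma on log2(FPKM + 1) over all 15 libraries, with p-values adjusted over the 12267 genes that had at least 0.5 FPKM in at least 5 libraries; 9 of the 10 genes passed that filter and Ltbp2 did not. In AngII against Control, 3 of the 9 tested genes were called higher at an adjusted p of 0.05, 0 were called lower and 6 were not called, where 11.9% of all genes tested were called higher, 1.48% lower and 13.4% in either direction. At an unadjusted p under 0.05 the count was 5 of 9, where 31.5% of all genes reached that level. The estimates of all 9 were positive, with a median log2 fold change of 0.43, where the median of all genes tested was 0.20. Without Control 3 and Control 5, 7 of the 9 were positive and the median was 0.37, where that of all genes was 0.08. None of the 3 genes stayed called without these libraries. Without AngII 5, 8 of the 9 were positive and the median was 0.27, where that of all genes was 0.18. With the transcript length balance as a covariate, 7 of the 9 were positive and the median was 0.17, where that of all genes was -0.02. Over all 15 libraries, the fold changes of the 3 called genes exceeded the median of all genes, 0.20, by 1.22 for Postn, 0.71 for Mfap5 and 0.62 for Fbn1. Over all genes 1457 were called higher and 181 lower, a split that became 406 and 413 after quantile normalization and 361 and 715 after median scaling. That covariate gave estimates of 0.17 for Postn, 0.18 for Fbn1 and 0.39 for Mfap5, and none of the 3 was called.

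In AngII+QDG against AngII, 0 of the 9 genes were called by limma, where 0% of all genes tested were called. At an unadjusted p under 0.05, 3 of the 9 were lower in AngII+QDG, namely Mfap5, Fbn1 and Sparc, where 2.6% of all genes tested were lower and 4.71% differed in either direction at that level. Without AngII 5 none of these 3 stayed at that level, and without AngII+QDG 2 the count was 1 of 9. The median log2 fold change of the 9 was -0.45, where the median of all genes tested was -0.02. It was -0.04 without AngII 5, where that of all genes was 0.01, -0.26 without AngII+QDG 2 and -0.12 with transcripts listed in every file. In AngII+QDG against Control, 1 of the 9 was called higher, Lum, and 0 were called lower, where 16% of all genes tested were called higher, 3.31% lower and 19.4% in either direction. At an unadjusted p under 0.05 the count was 3 of 9, all of them higher, where 33.9% of all genes reached that level and 7.12% were lower at it. The median there was 0.26, where the median of all genes tested was 0.18. It was 0.01 without Control 3 and Control 5, 0.17 without Control 3 alone and -0.41 with the balance covariate, where all genes had 0.05, 0.17 and -0.05. With the same covariate the Lum estimate was 0.53 (limma adjusted p = 0.674). Over all genes 1968 were called higher and 406 lower in AngII+QDG against Control, which became 983 and 999 after quantile normalization and 791 and 1625 after median scaling. The comparisons share groups, since AngII libraries enter both comparisons with AngII and Control libraries both comparisons with Control.

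**Figure D1:**
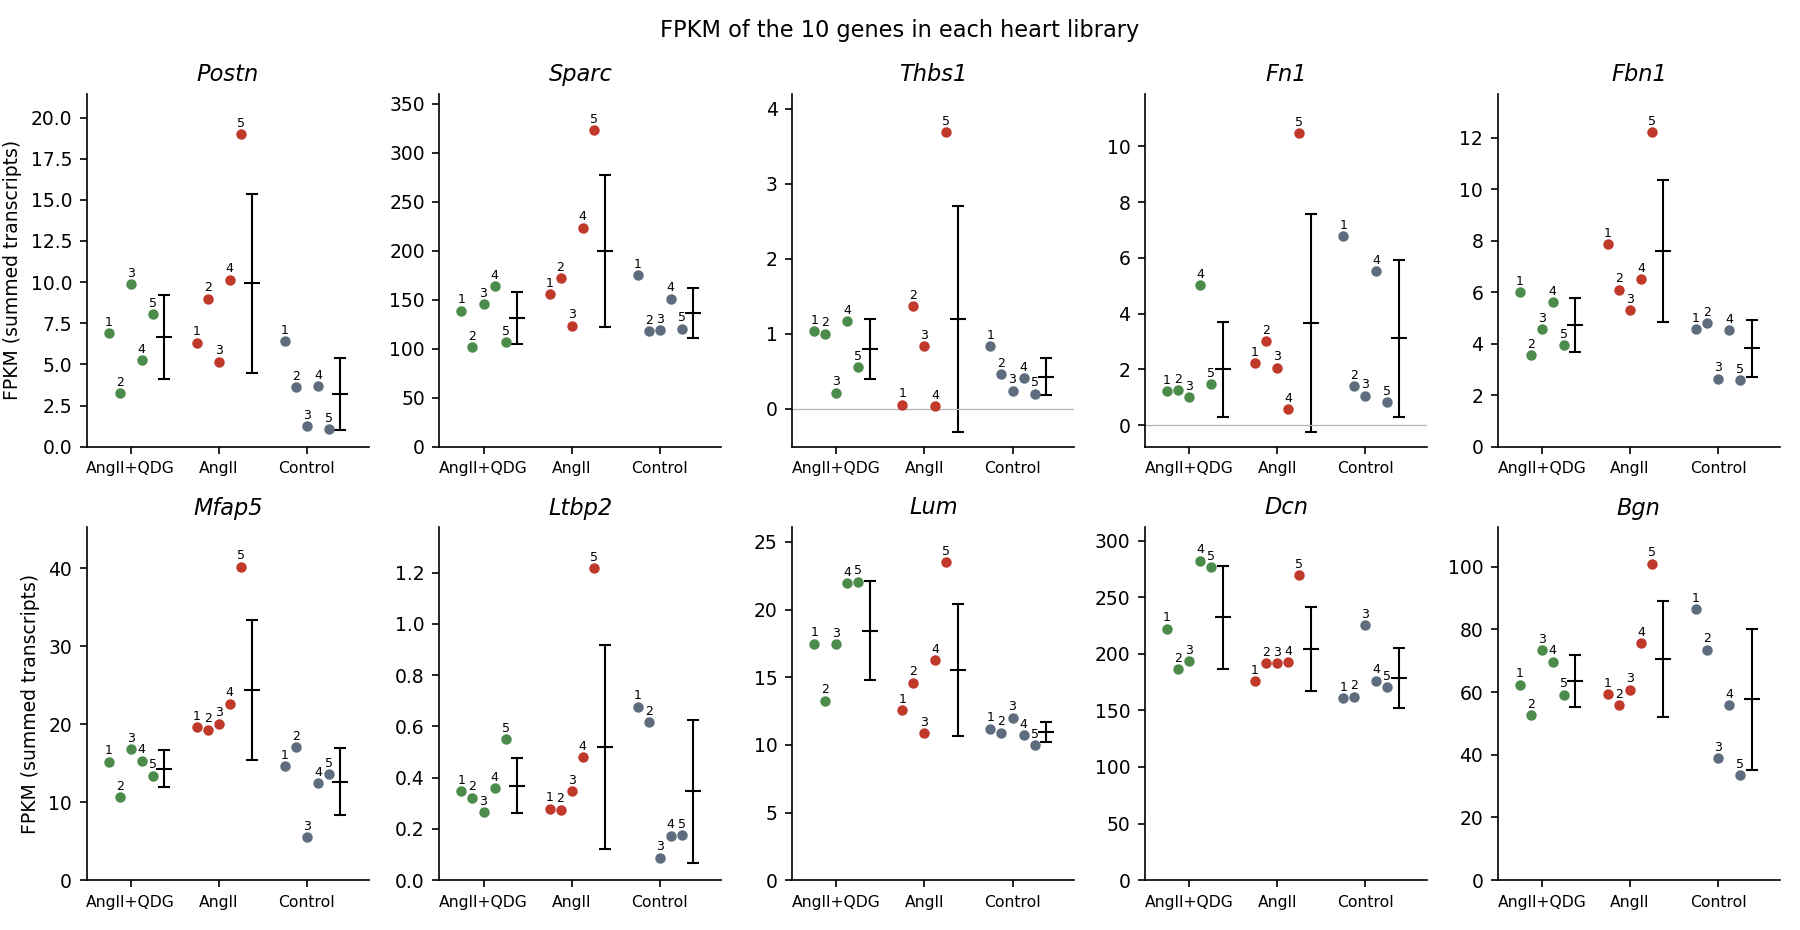
FPKM of the 10 genes (vertical axes, linear) in each library, with AngII+QDG, AngII and Control from left to right. Each point is 1 library, labelled with its replicate number, and the bar beside each group is the mean ± SD (n = 5). AngII 5 is the highest AngII library for all 10 genes.

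AngII 5 had the highest AngII value of all 10 genes, whereas over all genes tested it was the highest AngII library for 40.7%. Control 5 was the lowest Control library for 6 of the 10, where 53.4% of all genes were lowest in that library. AngII+QDG 2 was the lowest AngII+QDG library for 7 of the 10, where 21% of all genes were. The summed level of 12 fibroblast markers was 183 to 235 FPKM in AngII+QDG, 172 to 272 in AngII, with the maximum in AngII 5, and 134 to 231 in Control. Its part in the values of AngII 5 was not tested.

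Among the matricellular genes, Postn had 6.91, 3.25, 9.89, 5.26 and 8.05 FPKM in AngII+QDG hearts 1 to 5, 6.32, 8.995, 5.16, 10.2 and 19.0 FPKM in AngII hearts and 6.43, 3.64, 1.24, 3.67 and 1.07 FPKM in Control hearts. AngII 5 was the highest library and Control 3 and Control 5 were the lowest, and every AngII library lay above the Control median, yet the groups overlapped because Control 1 exceeded AngII 1 and AngII 3. The means were 6.67 ± 2.55, 9.92 ± 5.44 and 3.21 ± 2.19 FPKM in AngII+QDG, AngII and Control (SD, n = 5 each). Postn was higher in AngII against Control by 1.42 ± 0.39 on the log2 scale (SE, limma adjusted p = 0.032), with AngII at 3.09 times the Control mean. Without Control 3 and Control 5 the difference was 0.88 ± 0.37 (limma adjusted p = 0.197). Between AngII+QDG and AngII the difference was -0.46 ± 0.39 (limma adjusted p = 0.998, 95% interval -1.28 to 0.37), and it was -0.21 ± 0.37 without AngII 5 and -0.26 ± 0.39 without AngII+QDG 2. For AngII+QDG against Control it was 0.96 ± 0.39 (limma adjusted p = 0.0955), and 0.42 ± 0.37 without Control 3 and Control 5. The call against Control was lost on leaving out Control 3, Control 5, AngII 2, AngII 4 or AngII 5 alone, with adjusted p from 0.0677 to 0.0761.

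Postn lies on chromosome 3 (GRCm38, chr3:54361109-54391037, plus strand), and 3 protein-coding transcripts were listed for it. They differ in cassette exons of the part that codes for the carboxy-terminal region of the protein. Postn-201 carries an exon of 84 bases (chr3:54385671-54385754) and Postn-203 an exon of 81 bases (chr3:54380412-54380492) that the other transcripts lack, and Postn-204 lacks both. Both exons lie within the coding sequence and keep the reading frame, adding 28 and 27 amino acids. They are shown in full, from GENCODE M21 transcripts on GRCm38, because they are the coding difference between the 3 transcripts.
Postn exon of 84 bases, in Postn-201: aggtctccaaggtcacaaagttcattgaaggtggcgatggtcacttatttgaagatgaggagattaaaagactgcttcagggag
Postn exon of 81 bases, in Postn-203: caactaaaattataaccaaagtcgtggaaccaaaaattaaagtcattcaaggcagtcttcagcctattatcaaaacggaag

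Postn-201 was the leading transcript, with a share of the Postn sum of 68.1, 0, 69.9, 61.1 and 71.7% in AngII+QDG, 0.175, 62.5, 64.9, 69.4 and 69.0% in AngII and 68.8, 61.2, 9.74, 0 and 20.97% in Control. In AngII+QDG 2, AngII 1 and Control 4 it was listed at or near 0, and Postn-204, without either exon, held 3.22, 5.62 and 3.04 FPKM there. In the other libraries with a Postn sum above 2 FPKM, Postn-201 held over 60% of it. None of the 3 transcripts was called in any comparison.

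Sparc codes for osteonectin, a collagen-binding protein that acts in collagen fibril assembly. Its level was 139, 102, 146, 164 and 107 FPKM in AngII+QDG, 156, 172, 123, 224 and 323 FPKM in AngII and 175, 118, 119, 151 and 120.4 FPKM in Control. AngII 5 and AngII 4 exceeded every Control library, and the AngII libraries 1 to 3 lay within the Control range. Sparc differed by 0.48 ± 0.22 in AngII against Control (SE, limma adjusted p = 0.155), by 0.29 ± 0.19 without AngII 5 and by 0.03 with the balance covariate. For AngII+QDG against AngII it was -0.54 ± 0.22 (limma unadjusted p = 0.0286, adjusted p = 0.97), with all 5 AngII+QDG libraries below the AngII median, and -0.35 ± 0.19 without AngII 5. AngII+QDG and Control had close means, 131 ± 26.3 and 137 ± 25.5 FPKM (SD, n = 5 each), with a 95% interval of the log2 difference from -0.54 to 0.42.

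Sparc lies on the minus strand of chromosome 11 (GRCm38, chr11:55394500-55423183). Its coding transcripts Sparc-201 and Sparc-202 differ in the coding sequence by 3 bases at the start of exon 3, where the bases CAG are repeated, and outside it by the length of the first exon, 293 against 111 bases. Exon 3 is shown for both (chr11:55407220-55407279 and chr11:55407220-55407276), with the 3 extra bases of Sparc-201 in capitals, since this is all that tells the proteins apart.
Sparc-201 exon 3: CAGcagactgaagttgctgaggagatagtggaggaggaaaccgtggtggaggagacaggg
Sparc-202 exon 3: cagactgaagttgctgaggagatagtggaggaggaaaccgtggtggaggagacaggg

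Sparc-202 held 89.2, 88.7, 20.2, 91.6 and 88.8% of the Sparc sum in AngII+QDG, 90.8, 90.7, 94.3, 91.0 and 2.42% in AngII and 92.9, 92.96, 94.6, 92.7 and 16.4% in Control. The 3 low libraries, AngII+QDG 3, AngII 5 and Control 5, came 1 from each group, and 88.7 to 94.6% was found in the other 12. In these 3 the form with the extra CAG held 116, 314 and 101 FPKM, against 6.17 to 19.7 FPKM elsewhere, while the gene's sum in AngII+QDG 3 and Control 5 stayed inside the range of its group. How reads were assigned to these similar transcripts is not stated in the sources used here, and its part in the shares was not tested.

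Thbs1 codes for thrombospondin-1, which can activate latent TGF-beta. It was low, with 1.04, 0.999, 0.216, 1.17 and 0.553 FPKM in AngII+QDG, 0.0544, 1.36, 0.833, 0.038 and 3.69 FPKM in AngII and 0.831, 0.459, 0.24, 0.41 and 0.1996 FPKM in Control. The AngII hearts held both the highest and the lowest of all 15 values, so their range took in the other groups. The differences were 0.40 ± 0.34 in AngII against Control, -0.08 ± 0.34 in AngII+QDG against AngII and 0.31 ± 0.34 in AngII+QDG against Control (SE), none of them called. The AngII against Control difference was 0.06 without AngII 5, 0.61 without AngII 4 and 0.60 without AngII 1. The lowest value, in AngII 4, rested on 17 fragments, and the sign of the AngII+QDG against AngII difference turned with the pseudocount, as given in the closing section.

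Fn1 codes for fibronectin, the adhesive protein that cells bind through integrins. It had 1.23, 1.26, 1.02, 5.02 and 1.47 FPKM in AngII+QDG, 2.23, 3.01, 2.07, 0.582 and 10.5 FPKM in AngII and 6.79, 1.41, 1.06, 5.52 and 0.83 FPKM in Control. The libraries with the highest FPKM sums, AngII+QDG 4, AngII 5, Control 1 and Control 4, came from all 3 groups. The difference was 0.13 ± 0.52 in AngII against Control (SE, limma adjusted p = 0.889), in AngII+QDG against AngII -0.45 ± 0.52 and in AngII+QDG against Control -0.32 ± 0.52, none of them called. The AngII against Control difference turned to -0.41 ± 0.58 without Control 3 and Control 5 and to -0.28 ± 0.47 without AngII 5, and that of AngII+QDG against AngII was -0.04 ± 0.47 without AngII 5.

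The high Fn1 sums came from Fn1-202, a transcript with a retained intron that codes for no protein and held 92.1% of the sum in AngII+QDG 4, 91.2% in AngII 5, and 92.1% and 92.998% in Control 1 and Control 4. Elsewhere its share was 0 to 7.22%. Fn1-202 is 4022 bases long and the coding transcripts 7694 to 8043 bases. FPKM divides by this length, so the same fragments give a higher FPKM under Fn1-202. The high sums rested on 1121 fragments in AngII+QDG 4, 3584 in AngII 5, 1934 in Control 1 and 1731 in Control 4. AngII 2, at 3.01 FPKM, had 1565, and AngII+QDG 4 had less depth than AngII 2. How far transcript length enters the Fn1 sums and differences was not tested. With protein-coding transcripts alone, the AngII against Control difference was 0.52 ± 0.25 (SE, limma adjusted p = 0.164). The AngII+QDG sums lack Fn1-214, which only the other files list, and the AngII+QDG against Control difference turned to 0.15 with protein-coding transcripts alone and to 0.30 with transcripts listed in every file. That of AngII+QDG against AngII was -0.37 and -0.09 with these 2 choices.

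The coding transcripts of Fn1 differ in the exon for the extra domain A, or EIIIA, of fibronectin, which tissue injury is known to bring into the mRNA. Fn1 lies on the minus strand of chromosome 1 (GRCm38, chr1:71585520-71653200), and the exon of 270 bases (chr1:71603660-71603929) codes for 90 amino acids. It is present in Fn1-211 and Fn1-214 and absent from Fn1-217, and is shown because it is the coding difference between Fn1-211 and Fn1-217.
Fn1 extra domain A exon: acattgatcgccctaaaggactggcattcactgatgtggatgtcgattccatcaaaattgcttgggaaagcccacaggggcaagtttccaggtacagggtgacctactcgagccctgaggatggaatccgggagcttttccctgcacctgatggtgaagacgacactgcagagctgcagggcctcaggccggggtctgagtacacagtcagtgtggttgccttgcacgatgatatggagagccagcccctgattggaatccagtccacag

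Fn1-211, with the exon, had 0.319, 0.643, 0.549, 0.212 and 1.06 FPKM in AngII+QDG, 0, 2.15, 0, 0 and 0.898 FPKM in AngII and 0.145, 0, 0, 0.103 and 0.0948 FPKM in Control. Fn1-217, without it, had 0.869, 0.527, 0.452, 0.186 and 0.413 FPKM in AngII+QDG, 2.16, 0.753, 0.0104, 0.43 and 0.00166 FPKM in AngII, and 0.0744 FPKM in Control 2, with the other Control libraries listed at 0. Fn1-214, which carries the exon, is listed only in the AngII and Control files, at 0.0206 to 2.04 FPKM in AngII and 0.283 to 1.33 FPKM in Control, so the share of fibronectin mRNA with the exon was not compared with AngII+QDG.

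**Figure D2:**
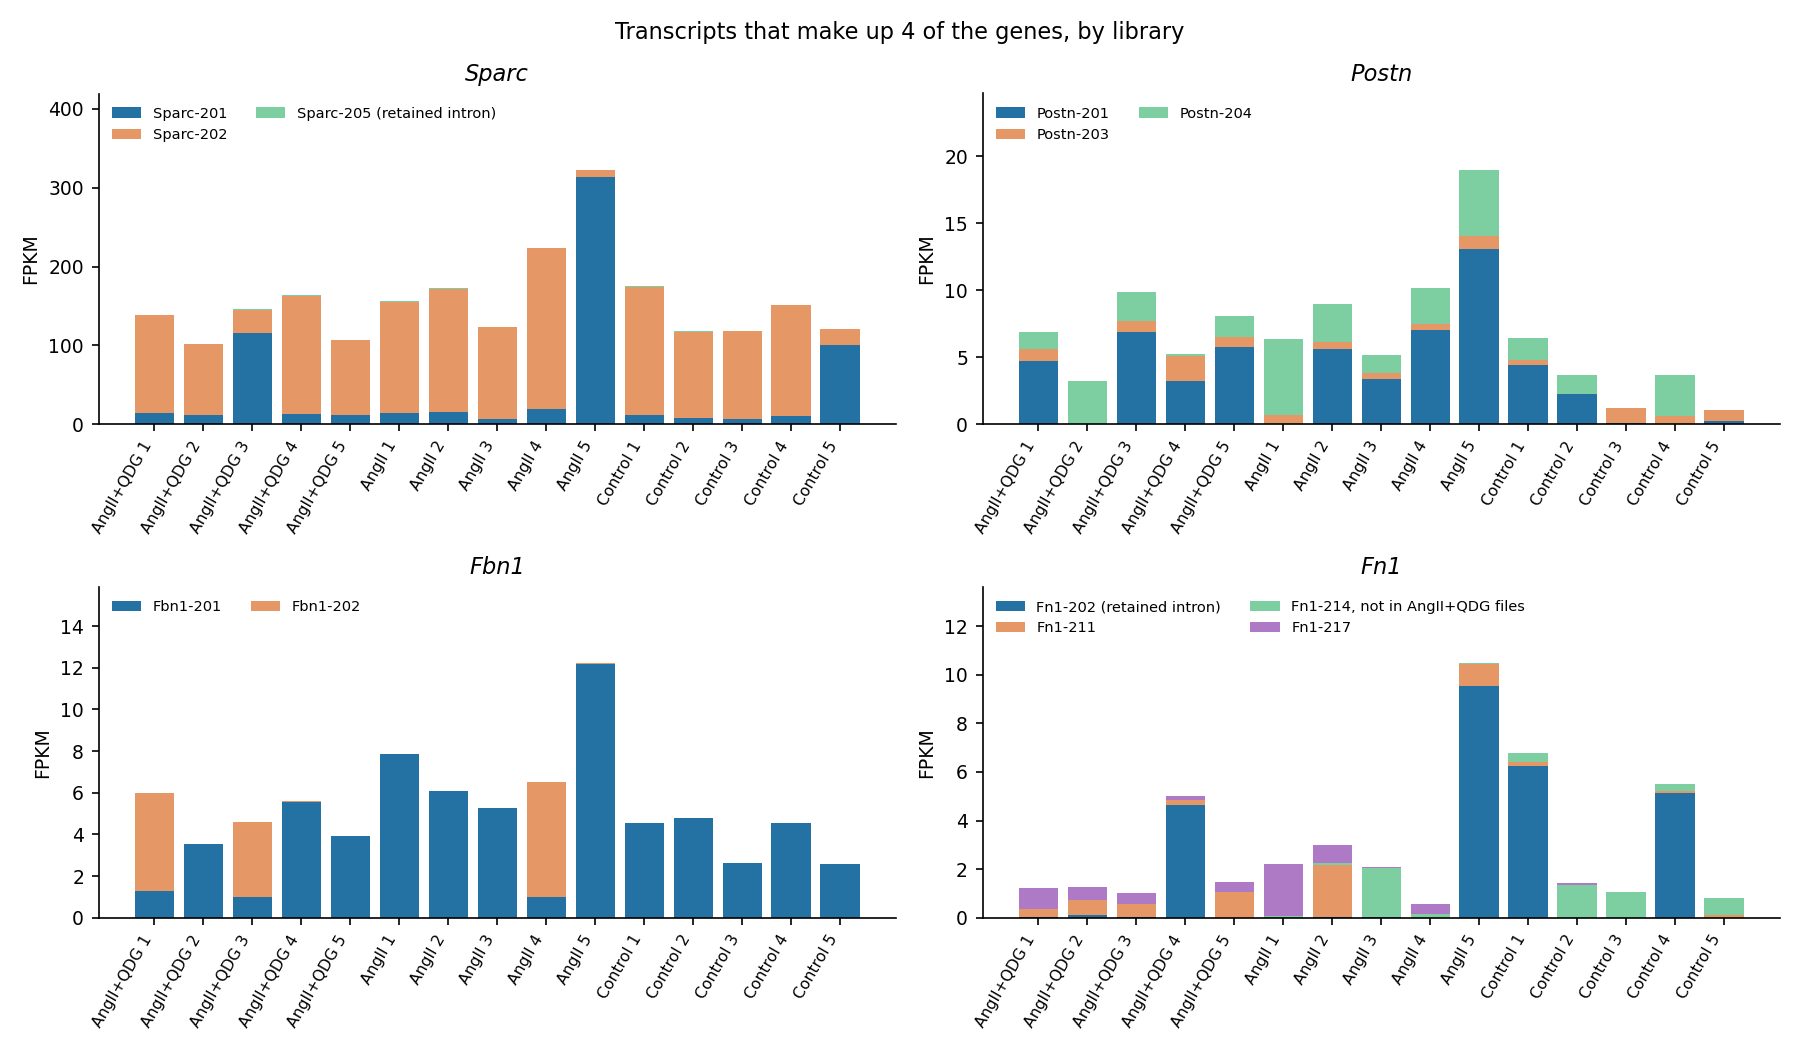
FPKM of the transcripts of Sparc, Postn, Fbn1 and Fn1 (stacked bars, vertical axes in FPKM) in each of the 15 libraries, AngII+QDG, AngII and Control from left to right. Most of the Sparc sum is listed under Sparc-201 in AngII+QDG 3, AngII 5 and Control 5 and under Sparc-202 elsewhere. Most of the high Fn1 sums is listed under the retained intron transcript.

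Fbn1 codes for fibrillin-1, the main protein of microfibrils (GRCm38, chr2:125300594-125507993, minus strand). It had 6.01, 3.54, 4.57, 5.60 and 3.94 FPKM in AngII+QDG, 7.87, 6.10, 5.29, 6.497 and 12.2 FPKM in AngII and 4.57, 4.79, 2.65, 4.53 and 2.58 FPKM in Control. All 5 AngII libraries exceeded all 5 Control libraries, and all 5 AngII+QDG libraries lay below the AngII median, with the ranges of these groups overlapping. Non-overlap in this direction was seen for 10.1% of all genes in AngII against Control. The rise in AngII against Control was 0.82 ± 0.22 on the log2 scale (SE, limma adjusted p = 0.029), with means of 7.60 ± 2.75 and 3.82 ± 1.11 FPKM (SD, n = 5 each). Without Control 3 and Control 5 it was 0.56 ± 0.22 (limma adjusted p = 0.162). Between AngII+QDG and AngII Fbn1 differed by -0.55 ± 0.22 (limma unadjusted p = 0.0215, adjusted p = 0.922), and by -0.38 ± 0.19 without AngII 5. The AngII+QDG against Control difference was 0.26 ± 0.22 (limma adjusted p = 0.415), and 0.01 ± 0.22 without Control 3 and Control 5.

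The call of Fbn1 against Control was lost on leaving out any of Control 3, Control 5, AngII 1, AngII 2, AngII 4 and AngII 5, with adjusted p from 0.0552 to 0.0647. Fbn1 is listed as 2 transcripts with the same coding exons. The longer one, Fbn1-202, had 4.745 and 3.597 FPKM in AngII+QDG 1 and 3 and 5.50 FPKM in AngII 4, against at most 0.0194 FPKM elsewhere, so neither transcript alone follows the sum.

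Mfap5 codes for a small glycoprotein that binds fibrillin microfibrils (GRCm38, chr6:122505845-122529290, plus strand). It had 15.2, 10.7, 16.8, 15.3 and 13.4 FPKM in AngII+QDG, 19.6, 19.3, 20.04, 22.6 and 40.2 FPKM in AngII and 14.6, 17.1, 5.50, 12.5 and 13.6 FPKM in Control. The 5 AngII libraries lay above all 10 libraries of the other groups. Non-overlap with Control in this direction was seen for 10.1% of all genes tested. Mfap5 rose in AngII against Control by 0.91 ± 0.26 (SE, limma adjusted p = 0.0362), and by 0.64 ± 0.22 without Control 3 and Control 5 (adjusted p = 0.127). Between AngII+QDG and AngII Mfap5 differed by -0.69 ± 0.26 (limma unadjusted p = 0.0184, adjusted p = 0.922), where non-overlap in this direction was seen for 0.799% of all genes tested. Means were 14.3 ± 2.36 FPKM in AngII+QDG, 24.3 ± 8.94 FPKM in AngII and 12.6 ± 4.34 FPKM in Control (SD, n = 5 each), and AngII+QDG differed from Control by 0.23 ± 0.26 (limma adjusted p = 0.572), by -0.044 ± 0.22 without Control 3 and Control 5 and by -0.35 with the balance covariate. Without AngII 5, the AngII+QDG against AngII difference was -0.50, and the call against Control ended without any of Control 3, Control 5, AngII 1, AngII 2, AngII 4 and AngII 5, with adjusted p from 0.0515 to 0.0817.

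Mfap5-207 held most of the sum, 71.4 to 87.0% in AngII+QDG, 84.3 to 89.7% in AngII and 78.9 to 94.3% in Control, and differs from the other coding transcript, Mfap5-201, by a coding exon of 36 bases (12 amino acids, chr6:122521893-122521928), shown here because this form carries the Mfap5 result.
Mfap5 exon in Mfap5-207: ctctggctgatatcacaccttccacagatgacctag

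Mfap5-207 alone was at 10.8, 9.18, 13.6, 13.3 and 10.1 FPKM in AngII+QDG, 16.7, 16.7, 17.6, 19.1 and 36.1 FPKM in AngII and 11.5, 15.7, 5.19, 10.3 and 10.9 FPKM in Control. It kept the order of the sum, with all AngII libraries above all others, and the share of all transcripts that do so was not counted. Tested among 28475 transcripts, it differed by 0.93 ± 0.26 in AngII against Control (SE, limma adjusted p = 0.0665) and by -0.79 ± 0.26 in AngII+QDG against AngII (limma unadjusted p = 0.00815, adjusted p = 0.876). Of the 17 transcripts of these genes that were tested, 0 were called in AngII against Control, 0 in AngII+QDG against AngII and 1 in AngII+QDG against Control, the single Lum transcript, where 2.5%, 0.0105% and 6.91% of all transcripts were called.

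Ltbp2 codes for a microfibril protein of the latent TGF-beta binding family. It was the lowest of the 10, with 0.347, 0.322, 0.265, 0.358 and 0.551 FPKM in AngII+QDG, 0.279, 0.275, 0.348, 0.479 and 1.22 FPKM in AngII and 0.677, 0.617, 0.0874, 0.174 and 0.174 FPKM in Control. AngII 5 was the highest library and the 3 groups overlapped. It failed the filter on low values and has no test in the fit.

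Lum was the only one of the 10 called in AngII+QDG against Control. Lumican is a keratan sulphate proteoglycan that binds collagen fibrils (GRCm38, chr10:97565128-97572703, plus strand). It had 17.5, 13.3, 17.4, 21.9 and 22.1 FPKM in AngII+QDG, 12.6, 14.6, 10.8, 16.3 and 23.5 FPKM in AngII and 11.2, 10.9, 12.02, 10.7 and 9.97 FPKM in Control. The Control libraries lay close together, all 5 AngII+QDG libraries exceeded them, and AngII overlapped both other groups. Non-overlap in this direction was seen for 12.8% of all genes tested. Lum rose in AngII+QDG against Control by 0.68 ± 0.18 (SE, limma adjusted p = 0.0176), 0.50 above the median of all genes. Without Control 3 and Control 5 the estimate was 0.68 ± 0.21 and the adjusted p 0.0618, and leaving out any single library kept the call. Lum differed by 0.43 ± 0.18 in AngII against Control (SE, limma adjusted p = 0.12), and by 0.26 ± 0.18 in AngII+QDG against AngII (limma adjusted p = 0.998). Without AngII 5 these were 0.27 ± 0.15 and 0.41 ± 0.15.

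Dcn, the gene of decorin, which binds collagen and TGF-beta, was the highest of the 10 by mean FPKM in every group. It had 222, 186, 193, 282 and 277 FPKM in AngII+QDG, 176, 192, 192, 192 and 269 FPKM in AngII and 161, 162, 225, 176 and 170.4 FPKM in Control. The groups overlapped, although all 5 libraries of AngII+QDG and of AngII exceeded the Control median. The differences were 0.36 ± 0.15 in AngII+QDG against Control (SE, limma adjusted p = 0.0977), 0.18 ± 0.15 in AngII against Control (95% interval -0.13 to 0.50) and 0.18 ± 0.15 in AngII+QDG against AngII (95% interval -0.14 to 0.49), where leaving out AngII 5 gave 0.08 in AngII against Control and 0.28 in AngII+QDG against AngII. Bgn, the gene of biglycan, a close relative of decorin, had 62.4, 52.6, 73.4, 69.7 and 59.2 FPKM in AngII+QDG, 59.4, 55.9, 60.8, 75.6 and 100.9 FPKM in AngII and 86.5, 73.6, 38.9, 55.8 and 33.5 FPKM in Control. Control 3 and Control 5 were the lowest of all 15 libraries and AngII 5 the highest, and the 3 groups overlapped. Its differences were 0.34 ± 0.24 in AngII against Control, -0.12 ± 0.24 in AngII+QDG against AngII and 0.22 ± 0.24 in AngII+QDG against Control (SE), none of them called, and those against Control turned to -0.04 ± 0.19 and -0.17 ± 0.19 without Control 3 and Control 5. Without AngII 5 the AngII against Control difference was 0.20.

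**Figure D3:**
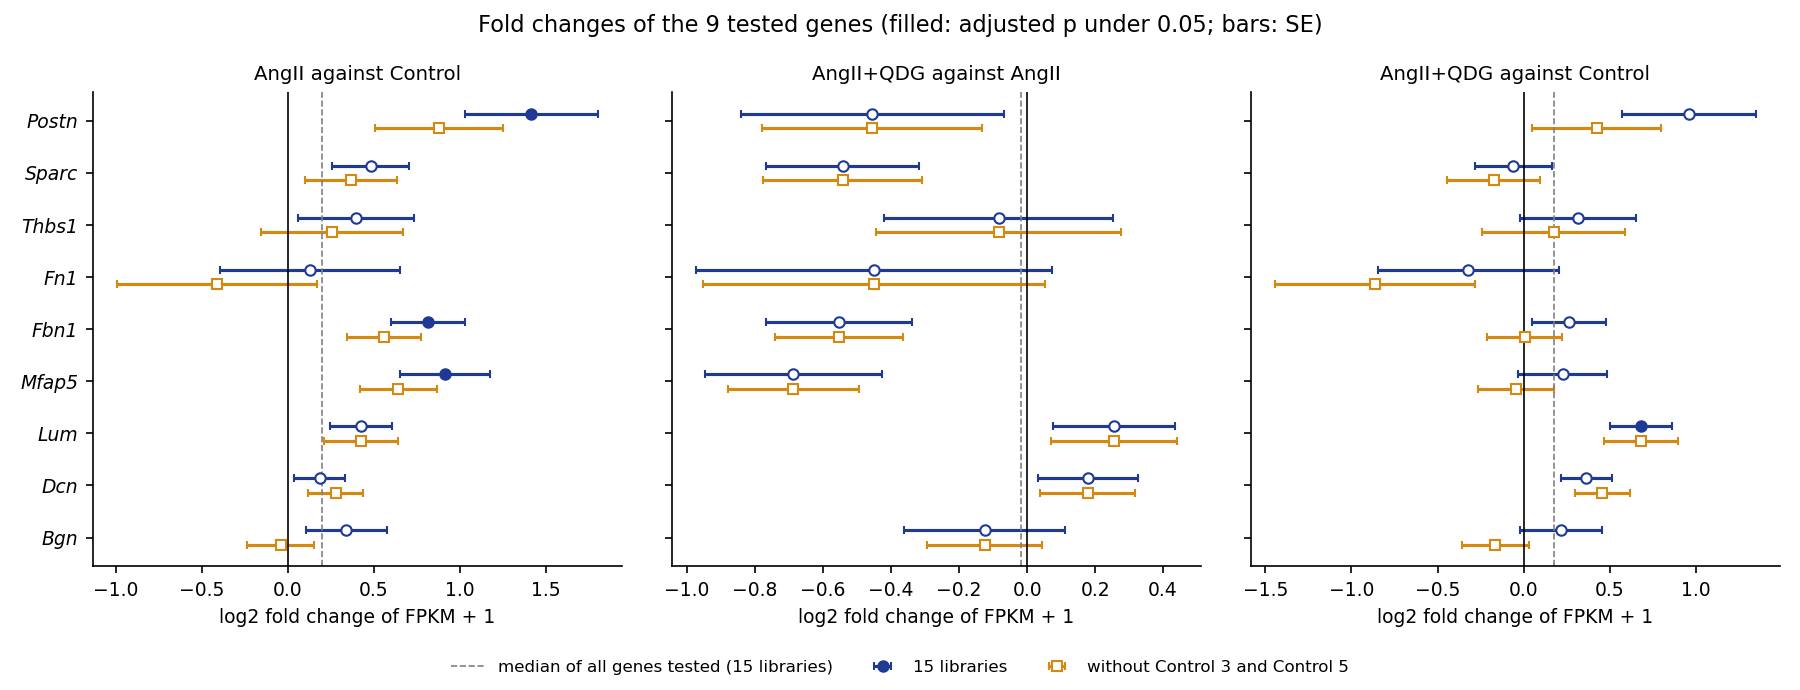
Log2 fold change of FPKM + 1 (horizontal axes) of the 9 tested genes in AngII against Control, AngII+QDG against AngII and AngII+QDG against Control, with SE bars. Circles use 15 libraries and squares leave out Control 3 and Control 5; filled symbols have a limma adjusted p under 0.05, which holds for Postn, Fbn1 and Mfap5 on the left and Lum on the right, and for no square.

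By mean level, the order from high to low in AngII was Dcn, Sparc, Bgn, Mfap5, Lum, Postn, Fbn1, Fn1, Thbs1 and Ltbp2. Dcn and Sparc overlapped in AngII, with Dcn higher in 3 of 5 libraries, and Dcn exceeded Sparc in 5 of 5 AngII+QDG and 4 of 5 Control libraries. Sparc exceeded Bgn and Bgn the next gene in every library of each group without overlap. Postn came after Fbn1 in Control, where Fbn1 exceeded it in 4 of 5 libraries, and ahead of it in AngII+QDG and in AngII, with Postn higher in 3 of 5 libraries in each. Lum came ahead of Mfap5 in AngII+QDG in 5 of 5 libraries, and after it in 5 of 5 AngII and 4 of 5 Control libraries.

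Levels were also set against decorin, the most abundant of the 10, in the same library. The log2 ratio of Postn to Dcn, each with 1 FPKM added, was -4.98 ± 0.55 in AngII+QDG, -4.34 ± 0.46 in AngII and -5.57 ± 0.92 in Control (SD, n = 5 each). AngII exceeded Control by 1.23 (exact two-sided permutation test, p = 0.0238, adjusted p = 0.119 over 15 ratio tests), and by 0.60 without Control 3 and Control 5, with Control 1 inside the AngII range. The ratio of Sparc to Dcn was -0.82 ± 0.35 in AngII+QDG, -0.10 ± 0.36 in AngII and -0.39 ± 0.38 in Control (SD, n = 5 each). AngII+QDG was 0.72 log2 units below AngII (difference -0.72, exact two-sided permutation test, p = 0.0159, adjusted p = 0.119), and AngII 3 alone lay inside the AngII+QDG range. The ratio of Ltbp2 to Dcn differed by -0.30 between AngII+QDG and AngII (exact permutation test, p = 0.0238, adjusted p = 0.119), a ratio in which the added 1 FPKM exceeds most Ltbp2 values. Dcn itself differed by 0.18 ± 0.15 in AngII+QDG against AngII (SE), which lowers each ratio in that comparison. Sparc alone differed there by -0.54 ± 0.22, so part of the -0.72 comes from Dcn, as does part of the -0.30 of Ltbp2. None of the 15 ratio tests passed the adjusted threshold.

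**Figure D4:**
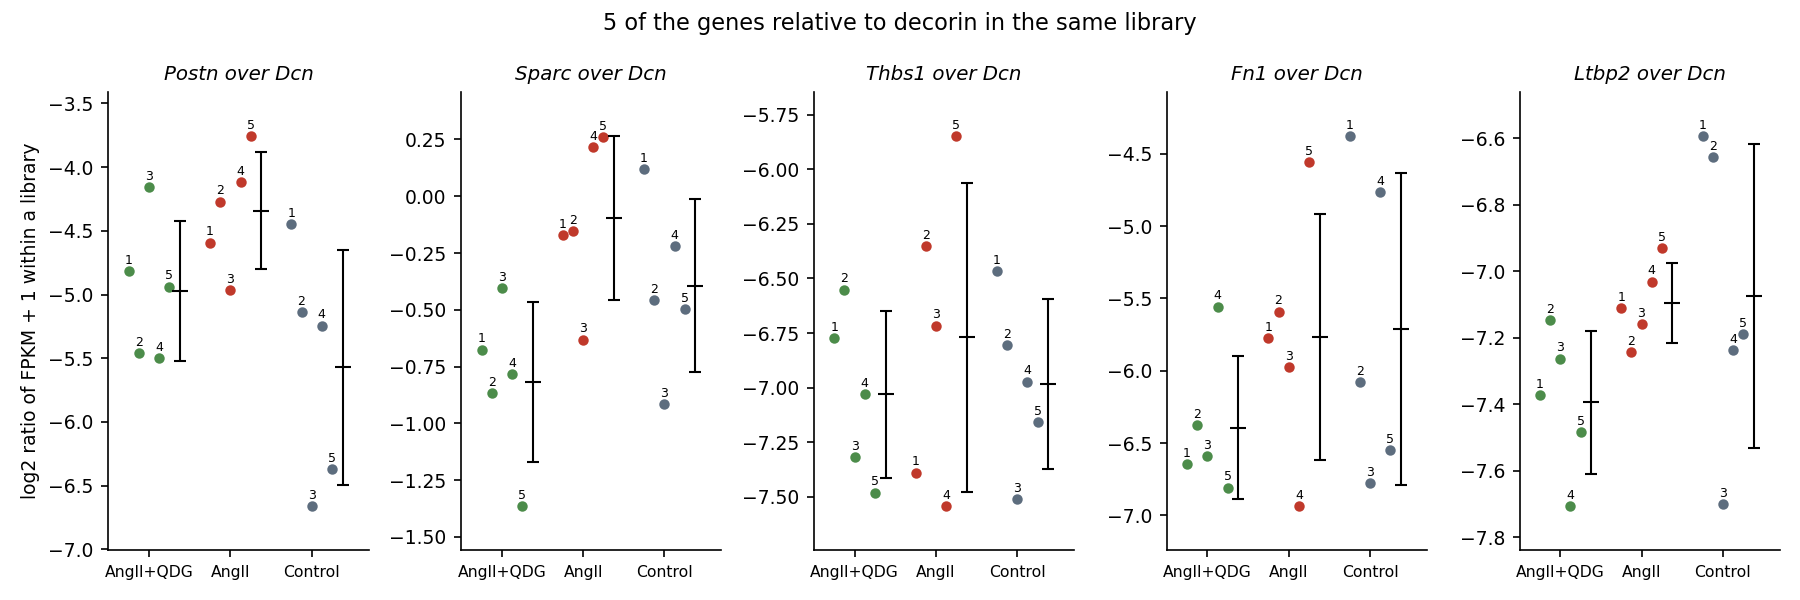
Log2 ratio of FPKM + 1 (vertical axes) of Postn, Sparc, Thbs1, Fn1 and Ltbp2 to Dcn in the same library, AngII+QDG, AngII and Control from left to right. Points are libraries with their replicate number and bars are mean ± SD (n = 5). The Postn ratio is lowest in Control 3 and Control 5, and the Sparc ratio lies lower in AngII+QDG than in 4 of the 5 AngII libraries.

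The genes whose log2(FPKM + 1) followed Postn most closely over the 15 libraries, among 9431 genes averaging 1 FPKM or more, were Rcan1 (Pearson r = 0.94), Fibin (0.94), Ankrd23 (0.94), Col15a1 (0.93) and Itga9 (0.92). With the mean of each group subtracted they were Frzb (0.90), Csf1 (0.90), Ankrd23 (0.90), Rcan1 (0.89) and Fibin (0.89). All of them were highest in AngII 5. Rcan1, an inhibitor and target of calcineurin signalling, averaged 43.7, 53.4 and 26.4 FPKM in AngII+QDG, AngII and Control. The 9431 genes leave out the matrix genes of this report, mitochondrial genes and predicted or clone-based models. Among the matrix genes themselves the group-mean-subtracted r with Postn was 0.87 for Bgn, 0.74 for Fbn1, 0.73 for Sparc and 0.70 for Mfap5. Of the 9431 genes, 99.9, 98.2, 98.0 and 96.2% lay below these values. The same r was 0.61 for Lum, 0.55 for Fn1, 0.38 for Thbs1 and 0.14 for Dcn, with 89.6, 83.1, 61.5 and 34.7% of the 9431 genes below. These values describe 15 libraries, in each of which the genes share depth and the transcript length balance, and carry no test.

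The counts of the lists below are to be read against 11.9% of all genes called higher and 1.48% lower in AngII against Control, with a median of 0.20, and 16% higher and 3.31% lower in AngII+QDG against Control, with a median of 0.18. In AngII against Control, 4 of 17 tested genes of the matricellular list were higher and 0 lower, with a list median of 0.33: Ccn2, connective tissue growth factor, Sparcl1, a relative of Sparc, Fstl1 and Postn. Ccn2 averaged 99.2 FPKM in AngII+QDG, 75.02 in AngII and 15.1 in Control, and rose by 2.10 ± 0.35 in AngII against Control (SE, limma adjusted p = 0.00781) and by 2.54 ± 0.35 in AngII+QDG against Control (adjusted p = 0.00153). Sparcl1 averaged 109 FPKM in AngII+QDG, 121 in AngII and 70.1 in Control, and rose by 0.78 ± 0.15 in AngII against Control (limma adjusted p = 0.0131). The AngII+QDG against Control count was 3 of 17 higher and 0 lower, a share near that of all genes, with a median of 0.32: Ccn2, Sparcl1 and Ccn1.

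Among microfibril and elastic fibre genes, 3 of 16 were higher in AngII against Control and 0 lower, with a list median of 0.14, below that of all genes, and the called genes were Fbn1, Mfap5 and Adamtsl2, a fibrillin-binding regulator of TGF-beta. Adamtsl2 averaged 3.31 FPKM in AngII+QDG, 4.87 in AngII and 1.76 in Control, with a rise of 1.01 ± 0.29 in AngII against Control (SE, limma adjusted p = 0.0369). Only Ltbp1 of the 16 was higher in AngII+QDG against Control, by 0.49 ± 0.14 (limma adjusted p = 0.0216), with a list median of 0.04. In AngII+QDG against AngII, Ltbp1 differed by 0.41 ± 0.14 (SE, limma unadjusted p = 0.00887, adjusted p = 0.793). That is opposite in sign to Mfap5 and Fbn1 in the same comparison. Among adhesive glycoproteins, 3 of 18 were higher in AngII against Control and 0 lower, namely Fgl2, Ecm2 and Matn2, with a list median of 0.19. Fgl2, Ecm2 and Matn2 were also higher in AngII+QDG against Control, and Vtn, vitronectin, was lower by a log2 change of -0.57 ± 0.17 (SE, limma adjusted p = 0.0304).

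Of 12 proteoglycans, with a median of 0.16 in AngII against Control and 0.20 in AngII+QDG against Control, 1 was higher in AngII against Control, Aspn (asporin, a relative of decorin), by 0.88 ± 0.23 (SE, limma adjusted p = 0.027), and 1 lower, Hspg2 (perlecan), by -1.78 ± 0.49 (adjusted p = 0.0322). Higher in AngII+QDG against Control were 3 of 12, Lum, Aspn and Ogn (osteoglycin, by 1.10 ± 0.31, limma adjusted p = 0.0254), and Hspg2 was lower by -2.19 ± 0.49 (adjusted p = 0.0089). Hspg2 averaged 1.11 FPKM in AngII+QDG and 1.73 in AngII, against 10.6 in Control, where it ranged from 1.37 to 17.5. It was tested in 31 of the 32 alternatives. Its estimates there were -2.55 to -0.23 in AngII against Control (limma adjusted p from 0.0044 to 0.998). They were -4.15 to -0.48 in AngII+QDG against Control (limma adjusted p from 0.000866 to 0.949). Aspn averaged 9.10 FPKM in AngII+QDG, 9.37 in AngII and 4.56 in Control.

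Among basement membrane glycoproteins 3 of 12 were higher in AngII against Control, Lamb1, Nid2 and Lama4, and Hspg2, which this list shares, was lower, with a list median of 0.67. Of the same 12, 4 were higher in AngII+QDG against Control and Hspg2 was lower, with a median of 0.55. Of 22 receptors of these proteins, 4 were higher and 0 lower in AngII against Control, with a median of 0.38: the integrin subunits Itga1, Itga9 and Itgb6 and the collagen receptor Ddr2. Itga1 rose by 0.65 ± 0.14 (SE, limma adjusted p = 0.0178) in AngII against Control and by 0.65 ± 0.14 (adjusted p = 0.00791) in AngII+QDG against Control, where 4 of 22 were higher with a median of 0.37. Of 9 TGF-beta ligands and receptors, 1 was higher in AngII against Control, the receptor Tgfbr2, by 0.57 ± 0.16 (limma adjusted p = 0.0375), and 2 in AngII+QDG against Control, with list medians of 0.39 and 0.22.

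Of 6 fibrillar collagens, 2 were higher in AngII against Control and 0 in AngII+QDG against Control, with list medians of 0.72 and 0.35. Col5a2 averaged 3.54 FPKM in AngII+QDG, 5.36 in AngII and 2.34 in Control, with a rise of 0.91 ± 0.21 in AngII against Control (SE, limma adjusted p = 0.0199). Col5a3 rose there by 0.65 ± 0.18 (limma adjusted p = 0.0311). Between AngII+QDG and AngII, 0 genes of these 8 lists were called by limma, and at an unadjusted p under 0.05 the counts were 0 to 3 per list. Without Control 3 and Control 5, 0 of the 26 list and marker genes followed in AngII against Control stayed called, with a smallest adjusted p of 0.0505 (Ccn2), and 10 of the 16 followed in AngII+QDG against Control stayed called. With the balance covariate 0 of the 26 and 0 of the 16 stayed called, with smallest adjusted p of 0.767 and 0.342, and over all genes 0 were called in either comparison. Since the balance does not overlap between Control and the treated groups, that fit cannot tell the balance and treatment apart.

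**Figure D5:**
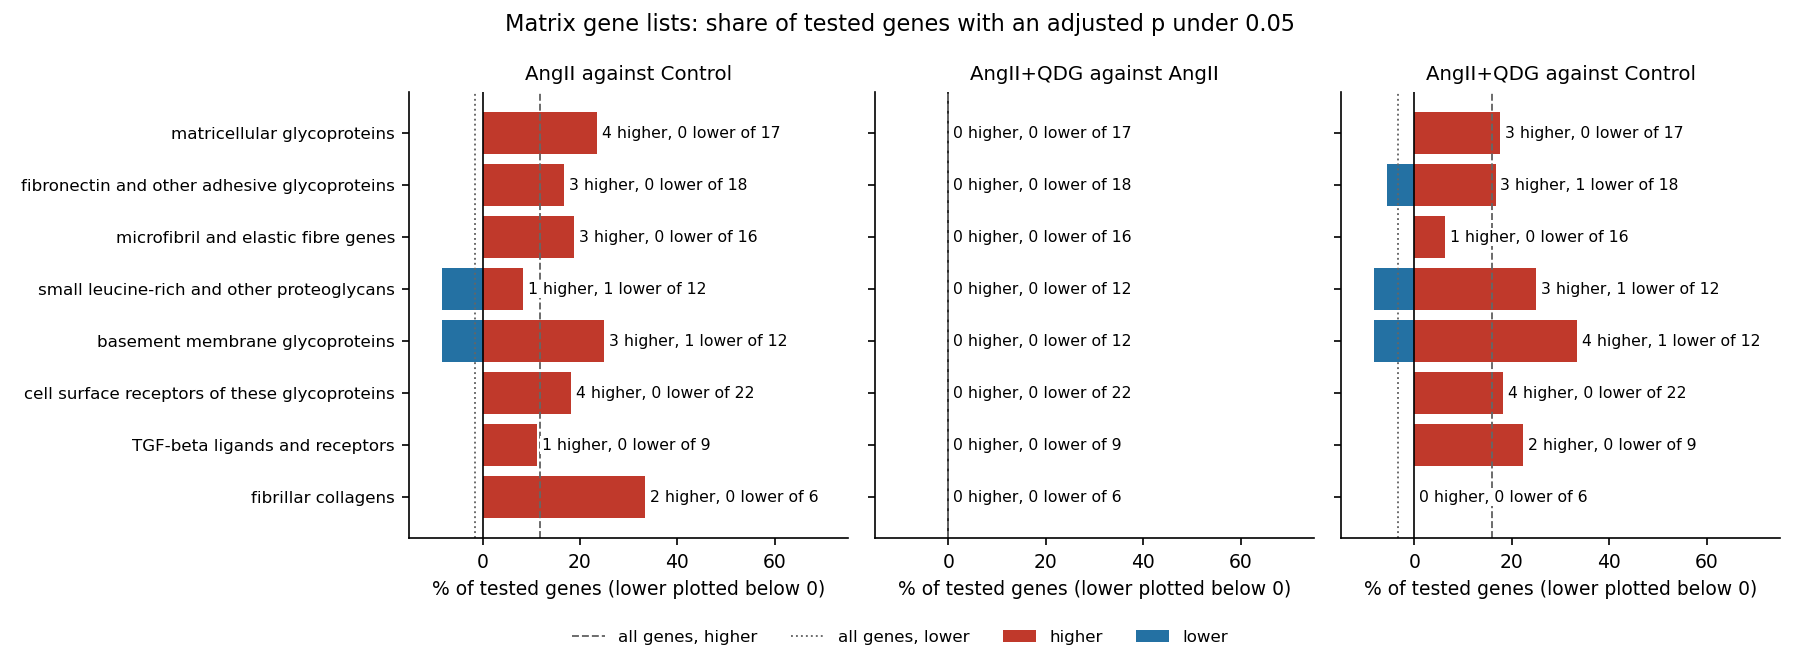
Share of tested genes of 8 matrix lists with a limma adjusted p under 0.05 (horizontal axes, percent; higher to the right, lower to the left of 0) in the 3 comparisons. Dashed and dotted lines mark the share of all genes called higher and lower. No gene of any list was called in AngII+QDG against AngII.

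Of the fibroblast markers, 1 of 12 was called in AngII against Control, Mmp2, higher by 0.71 ± 0.22 (SE, limma adjusted p = 0.0465), with a list median of 0.16. Called in AngII+QDG against Control were 2 of 12, Pdgfra and Scara5, both higher, with a median of 0.08. Pi16 of the same list went the other way, by -0.60 ± 0.23 (SE, limma adjusted p = 0.0808). In AngII+QDG against AngII, Pi16 differed by -0.71 ± 0.23 (limma unadjusted p = 0.0075, adjusted p = 0.769) and Pdgfra by 0.27 ± 0.16 (limma adjusted p = 0.998). Of 9 tested activated fibroblast markers 1 was called in each of these comparisons, Ddah1, higher in both, and 3 others of the list, Cthrc1, Tnc and Runx1, are not among the genes named here. The summed level of these markers was 61.2 to 96.7 FPKM in AngII+QDG, 75.7 to 144 in AngII, with the maximum in AngII 5, and 39.2 to 83.1 in Control.

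Of 12 smooth muscle and pericyte markers 3 were higher in AngII against Control, with a summed level of 283 to 913 FPKM in AngII+QDG, 406 to 1054 in AngII and 640.3 to 1029 in Control. Of 12 endothelial markers 1 was higher in AngII against Control, Flt1, and 3 were higher and 2 lower in AngII+QDG against Control; their sum was 244 to 321 FPKM in AngII+QDG, 249 to 361 in AngII and 220 to 350 in Control. Of 11 macrophage markers 1 was higher in AngII against Control, Cd163, with a sum of 254 to 337 FPKM in AngII+QDG, 234 to 430.5 in AngII and 240.2 to 437 in Control. Epicardial, adipocyte, Schwann cell and red blood cell lists had 1 to 5 tested genes each, of which 0 were called in AngII against Control, and 0, 0, 1 and 1 in AngII+QDG against Control. The part of these cell types in the results of the matrix genes was not tested.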

How the data were processed

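RNA of 15 hearts was prepared with Trizol, rRNA depletion and an NEB kit, per the labels' protocols; GRCm38 and limma are named in the submitters' processing notes, and the sources used here name no aligner or quantifier. The authors deposited 1 table of transcript levels per library with no unit in its header. FPKM was taken as the deposited unit because value times transcript length came out as whole multiples of a step, within 0.1, for 97.1 to 97.3% of values; a step may be a read pair or a single read. Control and AngII files list 31685 transcripts and AngII+QDG files 31734, with 29996 in every file. With GENCODE M21, 24756 transcripts were named and summed per gene, and 8634 assembled transcripts without a gene name were left out of the sums. How reads shared between transcripts of a gene were assigned is not stated in these sources, so single transcripts are less certain than sums.

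Tests used limma 3.58.1 in R 4.3.3 (trend and robust variance, 12 residual degrees of freedom) on log2(FPKM + 1), which understates changes of low genes, with Benjamini-Hochberg adjustment at 0.05. Groups of 5 were also compared by exact permutation over 252 arrangements. The steps were tested on simulated data. Summaries and plots used Python 3.11.15, numpy 2.4.6, pandas 2.3.3, scipy 1.17.1 and matplotlib 3.10.9. The members and gene lists were chosen with earlier results of these data known. Named beside the 10 genes were, per comparison, up to 4 genes of each matrix list and 3 of each cell type list with the smallest p, and the 5 genes most like Postn; not all of them are printed. The series' design text gives 5 mice per group, and p-values set the group differences against the spread between these mice. Alternatives covered the pseudocount (0.1 and 0.5), the filter, scaling, the fit of 2 groups, the replicate number, sample weights, transcript length, which transcripts were summed, limma voom on recovered fragments, and libraries left out. Using protein-coding transcripts only was chosen after seeing the data.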

Additional observations from a re-analysis of the deposited data

Results flagged for a closer look

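Single libraries stood far from the rest of their group for several of these genes, by a gap of over 0.71 of the group's range. Among 51 group values examined, 15 were found. Chance gives about 1 in 20 for independent values of a normal distribution. FPKM and transcript shares need not follow one, and several flags come from the same library, so the count cannot be set against that rate. The AngII 5 library held 10.5 FPKM of Fn1, 269 of Dcn, 40.2 of Mfap5 and 1.22 of Ltbp2. Fn1 stood at 5.02 FPKM in AngII+QDG 4 and Dcn at 225 FPKM in Control 3. The Fn1 values flagged here were listed mostly under Fn1-202, which is shorter than the coding transcripts and gives a higher FPKM for the same fragments.

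The other flags are shares of the leading transcript. For Postn-201 the share was 0% in AngII+QDG 2 and 0.175% in AngII 1. For the retained intron transcript of Fn1 it was 92.1% in AngII+QDG 4 and 91.2% in AngII 5. Fbn1-201 held 15.3% in AngII 4, and 99.9% in Control 1, where the other Control libraries were all at 100%. Sparc-202 held 20.2% in AngII+QDG 3, 2.42% in AngII 5 and 16.4% in Control 5.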

How the results depend on the processing

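Of 32 alternatives, 15 left out a single library. Leaving out 1 library gave 0 to 3 of these genes called higher in AngII against Control and 1 to 2 in AngII+QDG against Control, and 0 to 1 of their transcripts called there. The count for AngII against Control, 3 as reported, was 0 after quantile normalization, in a fit of 2 groups only, with the replicate block, with the replicate block and balance covariate, with sample weights, with the balance covariate, with the length trend removed and without Control 3 and Control 5, and 1 after median scaling. The count for AngII+QDG against Control, 1 as reported, was 0 after quantile normalization, after median scaling, with the balance covariate with or without the replicate block, with the length trend removed and without Control 3 and Control 5. The 1 transcript called there was lost, giving 0, without Control 3 and Control 5, with the balance covariate and with the replicate block. Calls of the 4 genes were kept with either other pseudocount, with either other filter, without mitochondrial genes, with transcripts listed in every file, with protein-coding transcripts only and by voom on recovered fragments.

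Directions turned as follows. In AngII against Control, Fn1 was -0.13 after quantile normalization and after median scaling, -0.35 with sample weights, -1.10 with the balance covariate, -0.26 with the length trend removed and -0.41 without Control 3 and Control 5, and -0.28 to 0.44 over single libraries left out. Dcn was -0.074 after median scaling, and Bgn -0.28 with the balance covariate and -0.041 without Control 3 and Control 5. The replicate block with balance covariate gave -0.47 for Postn, -1.32 for Fn1, -0.37 for Thbs1, -0.43 for Bgn, -0.10 for Ecm2 and -0.053 for Itga9. In AngII+QDG against AngII, Thbs1 was 0.31 at a pseudocount of 0.1, 0.13 with sample weights, 0.73 by voom and -0.29 to 0.25 over single libraries, and Bgn -0.20 to 0.012. In AngII+QDG against Control, Sparc was 0.0011 after quantile normalization and -0.15 to 0.032 over single libraries. Mfap5 was -0.036 after median scaling, -0.044 without Control 3 and Control 5, -0.35 with the balance covariate, and -0.021 to 0.35 over single libraries. Bgn was -0.047 after median scaling, -0.030 with sample weights, -0.47 with the balance covariate and -0.17 without Control 3 and Control 5. The balance covariate gave -0.41 for Postn, -0.44 for Fbn1 and -0.090 for Thbs1, and removing the length trend -0.18 for Fbn1 and -0.10 for Thbs1. The replicate block with balance covariate gave -1.11 for Postn, -0.41 for Fbn1, -0.53 for Thbs1, -0.53 for Mfap5, -0.63 for Bgn and -0.039 for Ecm2. Fn1 was 0.30 with transcripts listed in every file and 0.15 with protein-coding transcripts only. The cause of these changes was not tested.

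No pairing by replicate number was seen: over 15 pairs the correlation of same-numbered libraries was -0.10 to 0.09, and a library's best match had its own number in 1 of 15. These correlations cannot exclude a pairing. With the replicate block, the adjusted p was 0.0669 for Postn, 0.0552 for Fbn1 and 0.0621 for Mfap5 in AngII against Control, and 0.0293 for Lum in AngII+QDG against Control. All genes called in AngII against Control, 1638 as reported, numbered 516 with the block, 317 in the fit of 2 groups, 323 with the length trend removed, 97 without Control 3 and Control 5 and 0 with the balance covariate. In AngII+QDG against Control, 2374 as reported, they numbered 1857 with the block, 1199 without Control 3 and Control 5 and 0 with the balance covariate. Depth limits Thbs1 most, at 17 fragments in its lowest library.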
